A study of Homo sapiens with 6 samples.

Results

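The genes described here are 6 matrix metalloproteinases (MMP1, MMP2, MMP3, MMP9, MMP14 and MMP15) and the 4 tissue inhibitors of metalloproteinases (TIMP1, TIMP2, TIMP3 and TIMP4), chosen by symbol as 10 of the 27469 genes with counts. They were measured in cultures of HMC3, microglia of human origin made to divide without limit by the SV40 large T antigen, by sequencing of 3' tags. The comparison was between 3 Control libraries and 3 libraries of cells treated with IL-33 for 24 h, and asks which transcripts differ after exposure to this cytokine. The sources used here give neither the dose of IL-33 nor what the Control cells received. Nothing in the labels ties the libraries to separate cultures, so the spread that the p-values measure is that of these libraries and may be technical. Levels are given in CPM (counts per 1000000 counts, on library sizes scaled by the TMM method). Differences are log2 fold changes of IL-33 over Control from edgeR's quasi-likelihood test, with p-values adjusted by Benjamini-Hochberg over all 12125 genes tested.

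Matrix metalloproteinases are zinc-dependent endopeptidases that cut collagens, gelatin, laminins and other matrix proteins, and that also release cytokines and growth factors from the matrix and the cell surface. Most are secreted as inactive precursors, while the membrane types, which include the products of MMP14 and MMP15, stay on the cell surface. TIMPs block the active site with a cysteine-rich amino end that coordinates the zinc. The system is known in brain for its part in cell migration, in remodelling of the perineuronal matrix and in opening of the blood-brain barrier, with microglia as one source of MMP9.

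The 2 sites that meet when a TIMP binds a metalloproteinase are shown as coding DNA, because they are what the members of each class have in common. For the metalloproteinases the lines give the codons of the zinc-binding motif of the catalytic domain, with the codons of its 3 histidines in capitals, from the annotated coding sequence (GENCODE 29, 5' to 3').
MMP14: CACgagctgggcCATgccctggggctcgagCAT
MMP15: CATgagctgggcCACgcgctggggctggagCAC
MMP2: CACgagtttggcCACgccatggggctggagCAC
MMP9: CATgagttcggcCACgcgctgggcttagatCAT
MMP1: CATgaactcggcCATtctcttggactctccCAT
MMP3: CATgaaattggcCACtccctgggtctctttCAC
The motif covers residues 239 to 249 of the MMP14 protein. MMP14 and MMP15 were identical at 28 of its 33 bases and at 72.6% of 1730 aligned coding bases, the highest coding identity among the 15 pairs of metalloproteinase members. For the inhibitors the lines give the first codons of the mature protein, with the codons of the 2 cysteines of its amino end in capitals.
TIMP1: TGCaccTGTgtcccaccccaccca
TIMP2: TGCagcTGCtccccggtgcacccg
TIMP3: TGCacaTGCtcgcccagccacccc
TIMP4: TGCagcTGCgccccggcgcaccct
TIMP2 and TIMP4 were identical at 21 of these 24 bases, and whole coding sequences of the 6 pairs of TIMPs were between 63.4% and 66.4% identical. In the last 500 bases of each member's transcript, where 3' tags fall, 0 of 451 stretches of 50 bases occurred in a transcript of any other gene, for each of the 10 members. Members therefore shared no exact stretch of that length through which a tag of 50 bases could be counted for a relative.

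Over all genes tested, Control 3 lay far from the other 5 libraries and had the lowest depth, at 55.0 on the first principal component (35.4% of the variance) against -18.0 to 0.86. The members' log2 fold changes and the counts over other gene lists are therefore also given without it.

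Several defining markers of the labelled cell type were absent. Of 14 genes typical of microglia and macrophages, 7 had 0 counts in all libraries (ITGAM, CX3CR1, P2RY12, TMEM119, TYROBP, SPI1 and C1QA), and the list summed to between 25.3 and 46.1 CPM in the Controls and 32.6 and 37.2 CPM after IL-33. The 13 markers of fibroblasts and other mesenchymal cells summed to between 3541 and 4305 CPM in the Controls and 3965 and 4194 CPM after IL-33, with COL3A1, ACTA2 and LUM at 0. Markers of astrocytes summed to at most 3.62 CPM and those of endothelial cells to at most 2.02 CPM in any library. Those of neurons summed to between 23.8 and 38.4 CPM, mostly from TUBB3 (26.9 CPM), and those of epithelial cells to between 593 and 730 CPM, mostly from KRT18 (627 CPM). With neutrophils and mast cells, the 7 marker lists held 19 tested genes, of which 0 passed the test. All libraries are of HMC3 cultures. In bulk RNA, fewer cells that express a gene and less of its RNA per cell cannot be told apart.

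HMC3 held transcripts of both TIMPs and membrane-type metalloproteinases, and almost none of the secreted metalloproteinases. Mean levels over the 6 libraries were 444 CPM for TIMP2, 134 CPM for TIMP1, 43.5 CPM for MMP14, 12.6 CPM for MMP15 and 7.96 CPM for TIMP3. A 3' tag is counted once per transcript, so these levels were compared without division by gene length. TIMP2 ranked 300th and TIMP1 1410th by mean level among the 12125 genes tested. The ranges of the 6 libraries did not overlap between TIMP2 and TIMP1, between TIMP1 and MMP14 or between MMP14 and MMP15, and in each of these pairs the first was higher in 6 of 6 libraries. MMP15 and TIMP3 were not separated in this order: their ranges overlapped (9.12 to 16.8 and 5.06 to 11.1 CPM), with MMP15 higher in 5 of 6 libraries.

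**Figure D1:**
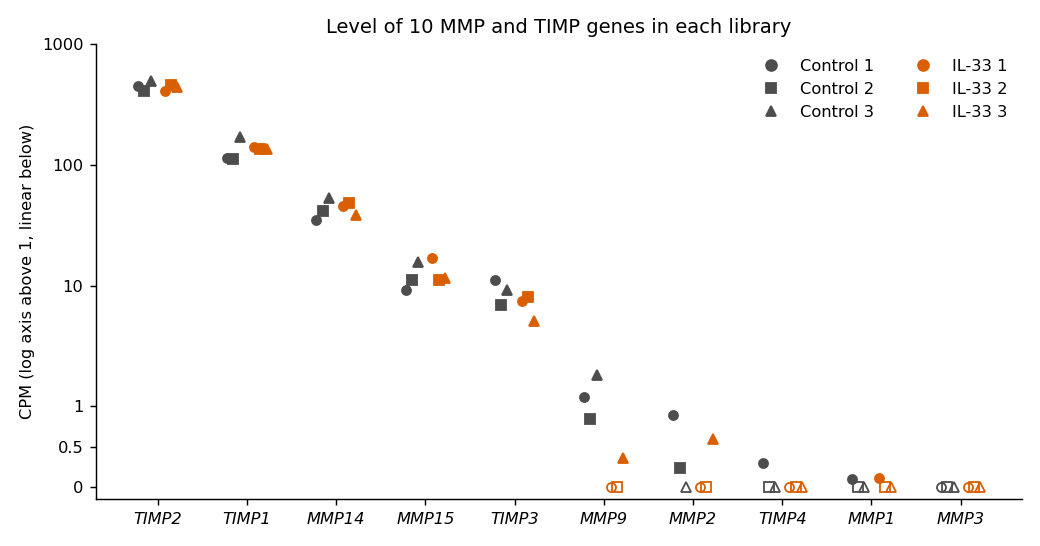
CPM of the 10 genes in each of the 6 libraries, ordered by mean; the vertical axis is logarithmic above 1 and linear below, grey marks Control, orange IL-33, and open symbols a count of 0. TIMP2, TIMP1 and MMP14 are separated bands, and the 5 genes at the right lie near or at 0.

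The other 5 members were at or near the detection limit. A library at 0 counts allows up to 3 counts, which is 0.293 CPM in the library of highest depth (10217529 counts) and 0.542 CPM in that of lowest depth (5739947 counts), for counting error only. MMP3, stromelysin 1, had 0 counts in all 6 libraries. MMP1, the interstitial collagenase, had 1 count in Control 1, 1 in IL-33 1 and 0 elsewhere, and TIMP4 had 3 counts in Control 1 and 0 elsewhere. MMP2, gelatinase A, which the MMP14 protein is known to activate with TIMP2 as an adaptor, had 9, 2 and 0 counts in the Controls and 0, 0 and 5 with IL-33. The MMP2 values of the groups overlapped, and the ratio of its pooled levels, 0.387 with an exact counting interval from 0.105 to 1.21, did not exclude equality. With a library left out the MMP2 ratio ran from 0 (without IL-33 3) to 1.23 (without Control 1). Its counting interval lay below equality without Control 3 (0.0810 to 0.928) and without IL-33 3 (0 to 0.486), and included equality without each of the other 4 libraries. IL-33 3 held all MMP2 counts of its group, so the ratio without it could only be 0. Counting intervals leave out the spread between libraries, so they cannot tell whether MMP2 differed between the groups. MMP9 was the most abundant of these 5 with 32 counts in all. None of the 5 passed the low-count filter, so 5 of the 10 members were tested.

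None of the 5 tested members passed the test, in a comparison in which 0 of all 12125 genes (0%) did at an adjusted p of 0.05. At an unadjusted p under 0.05 there were 0 of 5 members, against 2.43% of all genes tested. By DESeq2 and by limma-voom, 0 members had an adjusted p under 0.05. The Control and IL-33 ranges overlapped in all 5, where 8.06% of the genes tested had groups that did not overlap. The adjusted p was 0.999 for each of the 5 in edgeR's quasi-likelihood fit (Benjamini-Hochberg adjusted).

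MMP14 encodes the membrane protease MT1-MMP, which cuts fibrillar collagen and activates the precursor of gelatinase A. It measured 35, 41.1 and 52.8 CPM in the Controls and 45.5, 48.1 and 38.7 CPM after IL-33. The highest and the lowest of these values were both Control libraries, and the IL-33 values lay between them. The log2 fold change was 0.05 ± 0.17 (SE, n = 3 each), with a 95% interval from -0.31 to 0.40, that is from 0.808 to 1.32 times the Control level.

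MMP15 encodes the related membrane protease MT2-MMP. Its levels were 9.12, 11.0 and 15.7 CPM in the Controls and 16.8, 11.1 and 11.5 CPM after IL-33. One library of each group was high, Control 3 and IL-33 1, and the other 4 lay close together. The log2 fold change was 0.15 ± 0.28, with a 95% interval from -0.43 to 0.73.

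TIMP1 encodes a secreted inhibitor of many metalloproteinases that acts weakly on the products of MMP14 and MMP15. Its levels were 114, 112 and 170 CPM in the Controls and 141, 136 and 134 CPM after IL-33. Controls 1 and 2 lay below the 3 IL-33 libraries and Control 3 lay above them, so that the Control SD was 32.6 CPM and the IL-33 SD 3.74 CPM. The log2 fold change was 0.06 ± 0.14, with a 95% interval from -0.23 to 0.35. Without Control 3 it was 0.28 ± 0.10 with an adjusted p of 0.517 by the same test (0.998 to 1 in the other alternatives), and its unadjusted p was 0.00598. In that fit 794 of 12611 genes (6.3%) had an unadjusted p under 0.05.

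TIMP2 encodes the inhibitor that also serves MMP14 as an adaptor on the cell surface. It was the most closely measured member, at 451, 408 and 497 CPM in the Controls and 408, 458 and 441 CPM after IL-33. The values of the 2 groups interleaved, and the coefficient of variation over the 6 libraries was 7.60%. The log2 fold change was -0.05 ± 0.10, with a 95% interval that runs from 0.837 to 1.11 times the Control level.

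TIMP3 encodes an inhibitor that binds to the matrix and blocks ADAM and ADAMTS proteases as well as metalloproteinases. Its levels were 11.1, 6.96 and 9.22 CPM in the Controls and 7.45, 8.0 and 5.06 CPM after IL-33. The lowest value was IL-33 3 and the highest Control 1, with Control 2 below 2 of the IL-33 libraries. The log2 fold change was -0.41 ± 0.32, the largest in size among the 5 tested members and the widest in its 95% interval, from -1.09 to 0.27.

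**Figure D2:**
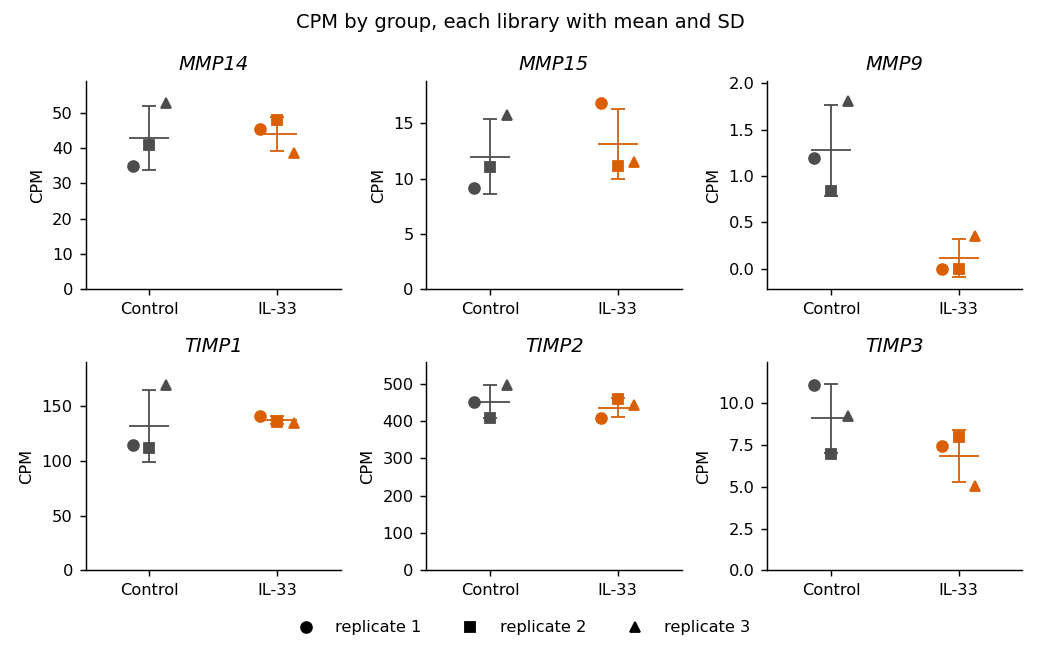
CPM of 6 members by group, 1 panel per gene; points are libraries, horizontal marks are means and bars are SD (n = 3). The groups overlap in MMP14, MMP15, TIMP1, TIMP2 and TIMP3, and in MMP9 the 3 Control values lie above the 3 IL-33 values at under 2 CPM.

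MMP9, gelatinase B, is a secreted protease with known NF-kB and AP-1 control, and was the sole member whose groups did not overlap. It had 12, 7 and 10 counts in the Controls and 0, 0 and 3 counts with IL-33, which is 1.19, 0.840 and 1.81 CPM against 0, 0 and 0.353 CPM. Pooled over libraries, 29 counts in Control and 3 with IL-33 gave a ratio of 0.0880 (IL-33 over Control), with an exact counting interval from 0.0172 to 0.284. With a library left out the ratio ran from 0 to 0.138, the 0 without IL-33 3, and it was 0.132 without IL-33 1 and 0.138 without IL-33 2. A two-sided exact permutation test over the 6 libraries gave p = 0.1, the smallest that 3 against 3 allow. Groups of 3 that do not overlap always give this value, so it adds nothing to that observation. With all genes kept, edgeR's quasi-likelihood test gave a log2 fold change of -3.34 ± 1.62, with an unadjusted p of 0.0389 and an adjusted p of 0.995. In the 4 fits with a library left out in which MMP9 passed the filter, the adjusted p lay between 0.998 and 1. It passed there through its Control libraries alone, so these fits were selected by the difference that they measure. Of the 2470 genes under the filter with 10 or more counts in all, 87 (3.52%) likewise had all IL-33 values below all Control values, and 9.47% had groups that did not overlap in either direction. The 8 markers of neutrophils and mast cells, cells known for MMP9, summed to between 51.1 and 58.7 CPM in the Controls and 41.4 and 52.0 CPM after IL-33, nearly all from KIT (48.4 CPM), with MPO, S100A8, S100A9, FCGR3B and TPSAB1 at 0. The libraries are of HMC3 cultures, and a relation of these marker transcripts to the MMP9 values was not tested.

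**Figure D3:**
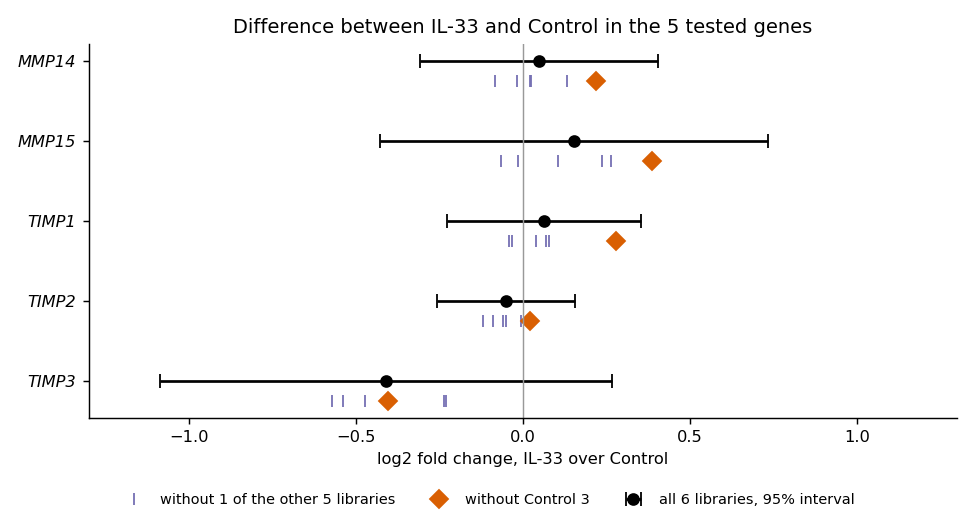
Log2 fold change of IL-33 over Control for the 5 tested members (black points, bars the 95% interval from edgeR), with the estimates after leaving out Control 3 (diamonds) or each other library (ticks). Every interval spans 0, and the estimates of MMP14, MMP15 and TIMP1 are highest without Control 3.

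Relative to the mean of Controls 1 and 2, Control 3 held 1.39 times as much MMP14, 1.56 times as much MMP15, 1.5 times as much TIMP1, 1.16 times as much TIMP2 and 1.02 times as much TIMP3. Without it the log2 fold change was 0.22 ± 0.16 for MMP14, 0.39 ± 0.29 for MMP15, 0.02 ± 0.08 for TIMP2 and -0.40 ± 0.35 for TIMP3, and 0 members had an adjusted p under 0.05, where 6 of 12611 genes (0.0476%) did.

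The balance of inhibitor and protease transcripts was similar in both groups. The 4 TIMPs summed to 576, 526 and 676 CPM in the Controls and 557, 602 and 581 CPM after IL-33. The 6 metalloproteinases summed to 46.3, 53.2 and 70.3 CPM in the Controls and 62.5, 59.2 and 51.2 CPM after IL-33. Summed TIMP transcripts were thus 10.7 ± 1.56 times the summed metalloproteinase transcripts in Control and 10.1 ± 1.22 times after IL-33 (SD, n = 3 each), a difference smaller than either SD. TIMP2 made up 76.4% ± 2.50 of the TIMP sum in Control and 75.1% ± 1.62 with IL-33, and MMP14 made up 76.0% ± 1.11 and 76.6% ± 4.23 of the metalloproteinase sum. These sums count transcripts and say nothing of secreted, active or bound protein.

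**Figure D4:**
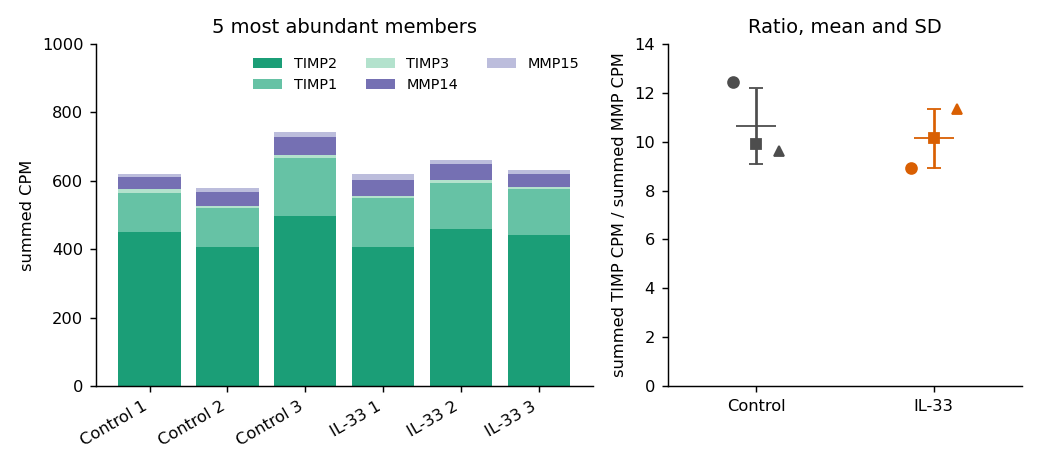
Left, summed CPM of the 5 most abundant members in each library as stacked bars from 0; right, summed TIMP CPM divided by summed MMP CPM, points for libraries with mean and SD (n = 3). TIMP2 forms the largest part of each bar, and the ratio lies between 8.91 and 12.4 in the 6 libraries.

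Of the 4 inhibitor genes, 3 lie inside synapsin genes. TIMP1 (X, 47582313 to 47586789, plus strand, GRCh38), TIMP3 (22, 32801701 to 32863043, plus) and TIMP4 (3, 12153051 to 12159351, minus) each lie within such a gene on the opposite strand, namely SYN1, SYN3 and SYN2, which encode proteins of synaptic vesicles. SYN1 and SYN3 had 0 counts in all 6 libraries and SYN2 13 counts in all, against 6883 for TIMP1 and 416 for TIMP3. TIMP2 (17, 78852977 to 78925387, minus) contains CEP295NL on the same strand, which had 27 counts against 22966 for TIMP2. MMP14 (14, 22836557 to 22849027, plus) and MMP15 (16, 58025566 to 58046901, plus) overlap no other annotated gene. MMP9 (20, 46008908 to 46016561, plus) overlaps SLC12A5-AS1 on the opposite strand, a symbol that is not among the genes with counts. The sources used here do not state the strand setting of the counting.

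Other metalloproteinase genes were mostly undetected. Among 17 further MMP genes, 10 were at 0 counts throughout, 12 never exceeded 3 counts in a library, and the 2 that could be tested were not called. MMP17, a membrane type anchored by glycosylphosphatidylinositol, measured 1.31 ± 0.318 CPM in the Controls and 3.07 ± 1.53 CPM after IL-33 (SD, n = 3 each), with 10, 11 and 9 counts against 22, 21 and 41. All IL-33 values of MMP17 lay above the Control values, as in 4.54% of the genes tested, and its log2 fold change of 1.23 ± 0.63 did not pass (adjusted p = 0.999 by edgeR's quasi-likelihood test). For MMP19, at 2.16 CPM, the log2 fold change was -0.53 ± 0.60. Without Control 3 the values were 1.4 ± 0.76 and -0.29 ± 0.76, with 0 of the 2 called. MMP24 had 2 counts in all, while MMP24-AS1, annotated as MMP24OS over the same stretch of the opposite strand and named here after its values were seen, had 3837.

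Of 23 genes that activate, hold or restrain metalloproteinases 20 were tested, 0 passed, 6 had a log2 fold change above 0, and the median was -0.02. Over all genes tested 48.9% had a log2 fold change above 0 and the median was -0.01. Of these 20, 16 had a 95% interval within 1 of 0 on the log2 scale, as had 73.4% of all genes tested. The tetraspanin CD63, a surface receptor for TIMP1, measured 1115 ± 94.8 CPM in the Controls and 1109 ± 97.7 CPM after IL-33. For the caveolar protein gene CAV1, at 1105 CPM, the log2 fold change was -0.02 ± 0.10. The 2 genes with the smallest p were the proprotein convertase PCSK7 (-0.31 ± 0.19, IL-33 values all below Control, as in 3.52% of genes tested) and the endocytic receptor LRP1 (-0.35 ± 0.22), which clears TIMP and protease complexes. Named after their values were seen, PLAU, the urokinase gene, measured 18.3, 16.9 and 1.81 CPM in Controls 1, 2 and 3, and the tetraspanin gene CD9 45.4, 47.3 and 9.76 CPM. Both were far lower in Control 3, and without it their log2 fold changes went from 0.11 ± 0.76 to -0.36 ± 0.26 and from 0.27 ± 0.58 to -0.14 ± 0.15. Without Control 3, 0 of 20 genes of the list passed, 5 were above 0 and the median was -0.15, against 50% above 0 and a median of 0.00 over all 12611 genes. At an unadjusted p under 0.05 there were then 6 of the 20, against 6.3% of all genes. With all 6 libraries there were 0 of the 20, against 2.43% of all genes tested.

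Of 7 ADAM and ADAMTS protease genes whose products TIMPs also inhibit, 6 were tested and 0 passed, with 2 above 0 and a median log2 fold change of -0.06. ADAMTS1 and ADAMTS5, which cut proteoglycans, lay at 143 and 119 CPM with log2 fold changes of -0.17 ± 0.13 and -0.10 ± 0.12. The sheddases ADAM17 and ADAM10 lay at 52.8 and 43.1 CPM, with 0.04 ± 0.16 and 0.14 ± 0.16, and ADAMTS4 had 0 counts. Without Control 3, 0 of 6 passed and 3 were above 0, and ADAMTS1 had -0.31 ± 0.10 (adjusted p = 0.387 by edgeR's quasi-likelihood test). In that fit 1 of the 6, ADAMTS1, had an unadjusted p under 0.05, against 6.3% of all genes.

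Among 21 genes of matrix proteins and proteoglycans that metalloproteinases cut, 15 were tested, 0 passed, 8 were above 0 and the median log2 fold change was 0.01. Fibronectin, FN1, measured 3703 ± 200 CPM in the Controls and 3630 ± 188 CPM after IL-33, and the collagen chain COL1A1 704 ± 128 and 736 ± 90.8 CPM. For the syndecan SDC4, at 470.1 CPM, the log2 fold change was 0.06 ± 0.09. COL1A2 (0.35 ± 0.24) and TNC, tenascin C (-0.55 ± 0.38), had the smallest p. COL3A1 and ELN had 0 counts in all libraries. Without Control 3, 0 of 15 passed, 4 were above 0 and the median was -0.02, with 8 genes turned in sign, among them COL1A1 at -0.07 ± 0.08. In that fit 0 of the 15 had an unadjusted p under 0.05, against 6.3% of all genes.

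Of 22 transcription factors known at metalloproteinase and TIMP promoters 21 were tested, 0 passed, 8 were above 0 and the median log2 fold change was -0.05. The AP-1 subunits JUND and JUN lay at 248 and 247 CPM with -0.18 ± 0.10 and -0.04 ± 0.10, and STAT3 at 132 CPM with -0.15 ± 0.13. CEBPB (0.26 ± 0.14) and ETS1 (-0.23 ± 0.13) had the smallest p. RELA, the NF-kB subunit, had 0.10 ± 0.11. Without Control 3, 0 of 22 passed, 7 were above 0 and the median was -0.08. STAT3 was then at 0.03 ± 0.10, ETS1 at -0.32 ± 0.11 and CEBPB at 0.12 ± 0.11. In that fit 1 of the 22, ETS1, had an unadjusted p under 0.05, against 6.3% of all genes.

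**Figure D5:**
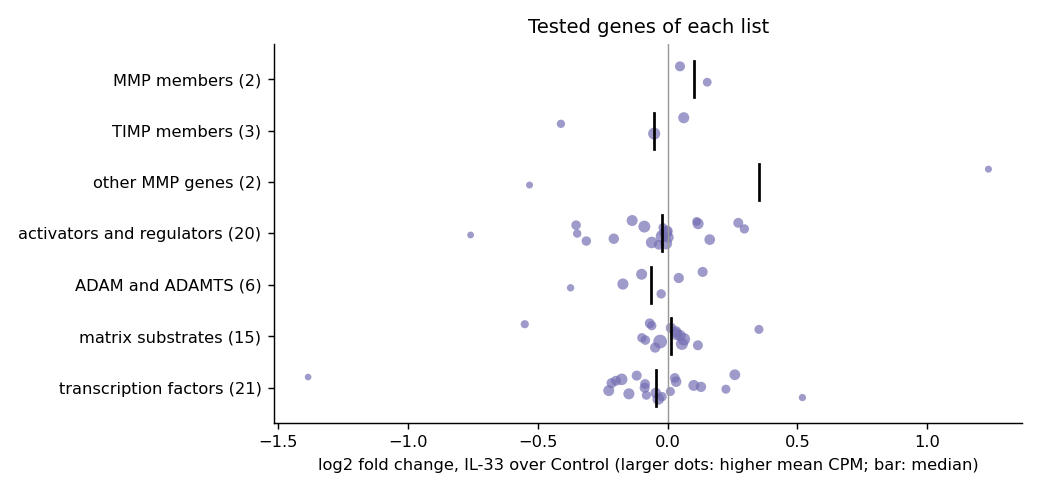
Log2 fold changes of IL-33 over Control for the tested genes of each list, 1 dot per gene, larger for a higher mean CPM, with the list's median as a bar and the number tested in brackets. The medians of the 4 lists of regulators, ADAM and ADAMTS proteases, substrates and transcription factors lie between -0.06 and 0.01.

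By Pearson's r of log2 CPM over the 6 libraries among 8329 genes of 10 CPM or more, the genes most like MMP14 were PBX3 (r = 0.992), HIST1H4C (0.992) and MRFAP1L1 (0.989). Those most like TIMP2 were PSME3 (0.994), VTI1A (0.987) and RANBP2 (0.984). All 6 were highest in Control 3, as MMP14 and TIMP2 were, and they are given as a description of these 6 libraries.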

How the data were processed

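The deposited file is 1 table of raw counts by gene symbol, from Lexogen QuantSeq 3' FWD libraries of TRIZOL-extracted RNA, per the labels' protocols. The submitters' processing notes list STAR 2.7.5a, HTSeq 0.6.1, edgeR and hg38 without saying what each did. The sources used here do not state the annotation, strand setting or filters. Of 27470 rows, 1 without values was left out.

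The test was edgeR 4.0.16 under R 4.3.3: filterByExpr (count minimum 10, total minimum 15), TMM, robust quasi-likelihood fit with group alone, Benjamini-Hochberg adjustment at 0.05. Standard errors are the fold change over the square root of F. Intervals are at 95%, and counting intervals are exact (Clopper-Pearson), for counting error only, as reads without molecular identifiers are not independent molecules. DESeq2 1.42.0, limma 3.58.1 (voom), other scalings and filters, the replicate block and leaving out each library were alternatives. The procedure was tested on simulated counts. Libraries of a group differed beyond sampling noise (chi-square per degree of freedom 5.63 to 16.8), so each was kept as its own replicate; pooled counts serve only the ratios of MMP9 and MMP2, whose intervals leave out the spread between libraries. Transcripts and positions came from GENCODE 29.

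The members and lists were chosen with earlier results of these data known. Named from each list were the 3 tested genes of highest level and the 2 of smallest p. The result of 1 gene that this rule names is not reported here. For MMP14 and TIMP2, the most abundant member of each class, the 3 genes of highest r were also named. RELA, the genes that overlap members and genes at 0 were named outside this rule, after their values were seen.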

Additional observations from a re-analysis of the deposited data

How the results depend on the processing

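No member passed the test under any of the 14 settings run, which were edgeR with all libraries, 7 other settings of the fit and 6 fits with a library left out, or at an adjusted p under 0.1. The count of changed genes over all genes was 0, and it was 3 (3 higher) without the low-count filter and 1 (1 higher, KIRREL3-AS2) with DESeq2. With a library left out it ran from 0 to 6, with 0 to 3 higher and 0 to 3 lower, the 6 without Control 3. Directions turned only where 1 library was left out: MMP14 to -0.083 without Control 1 and -0.02 without IL-33 2, MMP15 to -0.01 without Control 1 and -0.066 without IL-33 1, TIMP1 to -0.03 without Control 1 and -0.041 without Control 2, and TIMP2 to 0.021 without Control 3. The highest values with a library left out were 0.22 for MMP14, 0.39 for MMP15 and 0.28 for TIMP1, all without Control 3, and the lowest for TIMP2 was -0.12 without Control 2. The cause was not tested. TIMP3 stayed below 0 in the 12 alternatives that tested it, from -0.57 to -0.23. The ratio of summed metalloproteinase to summed TIMP levels, IL-33 over Control, was 1.05, and 0.971 to 1.11 with a library left out. With the replicate block 0 genes and 0 members changed, and TIMP3 had -0.41, TIMP1 0.09 and MMP14 0.06. The labels do not say that the numbers pair the libraries, and deviations of same-numbered libraries correlated with r of -0.086, 0.027 and -0.136. The ratios of MMP9 and MMP2 with a library left out, and the counts of other lists without Control 3, were added after the data were seen. Depth limits MMP1, MMP2, MMP3, MMP9 and TIMP4, which had between 0 and 32 counts over all libraries.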
